A study of Mus musculus with 27 samples.

Results

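The creatine kinases and the genes of creatine supply were examined in C2C12 cells that carried NFIA, whole or as the Δpro#3 deletion mutant, and in control cells. The 7 genes were chosen by name out of the 24825 genes listed for each sample. Of these, 4 encode creatine kinases (Ckm, Ckb, Ckmt1 and Ckmt2) and 3 serve creatine supply (Slc6a8, Gamt and Gatm). Ckmt2 was selected on these same data, because its level in Δpro#3 mutant-expressing cells exceeded that of control cells at day 7. The comparison of the mutant with control cells at day 7 is therefore given as values with no test for any of the 7 genes. For Ckmt2, no p-value is given for any comparison of the untreated day 7 samples of control or mutant cells, although in the fits over 18 samples these also enter the minimum level and the estimate of spread behind its forskolin response with full-length NFIA.

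Creatine kinases move a phosphate group between ATP and creatine, so that phosphocreatine serves as a rapidly drawn store of energy. Ckm encodes the cytosolic enzyme of muscle and Ckb the cytosolic enzyme of brain and many other tissues, and myoblasts are known to turn from Ckb to Ckm as they fuse into muscle fibers. Ckmt2 encodes the mitochondrial enzyme of striated muscle, and Ckmt1 the mitochondrial enzyme of brain and other tissues. Creatine is made in a first step by the product of Gatm, from arginine and glycine, and in a second step by the product of Gamt, which adds a methyl group. The product of Slc6a8 carries creatine into the cell. In thermogenic fat, cycles of phosphorylation and dephosphorylation of creatine have been described as a path of energy expenditure.

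C2C12 is an established mouse myoblast line. Polyadenylated RNA was sequenced from 27 samples in 9 groups of 3 replicates. Control cells, cells with full-length NFIA and cells with the mutant were each taken before differentiation (day 0), on day 7 untreated, and on day 7 with 10 µM of forskolin, an activator of cyclic AMP synthesis, given for 4 h. NFIA is a transcription factor that drives adipocyte differentiation, and the mutant lacks its C-terminal pro#3 domain. Both were introduced by retrovirus with a 3xFLAG tag and overexpressed, and all 3 kinds of cells received the same adipogenic medium with isobutylmethylxanthine, indomethacin, dexamethasone, insulin, T3 and rosiglitazone. No source used here says whether replicates came from separate cultures, so p-values measure the spread between these samples, which may be technical.

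Levels are in FPKM, which divides the fragments of a gene by its length and by the depth of the sample, so that the levels of different genes can be set side by side. Between 9567769 and 27230965 fragments were counted per sample. Nfia, whose reads from the introduced and the endogenous gene cannot be told apart, was at 225 to 594 FPKM in full-length NFIA-expressing samples, at 262 to 480 FPKM in mutant-expressing samples and at 0.0885 to 7.35 FPKM in control samples, the highest of which was replicate 2 of day 0. The 10 skeletal muscle markers, from Myod1 to Acta1, summed to 1601 to 1706 FPKM in control cells at day 0 and to 12726 to 14794 FPKM at day 7. The corresponding sums were 136 to 144 and 2196 to 3063 FPKM with full-length NFIA, and 416 to 424 and 13775 to 14648 FPKM with the mutant. The 8 adipocyte markers summed to 13353 to 14842 FPKM at day 7 with full-length NFIA and to 344 to 380 FPKM in control cells. In mutant-expressing cells at day 7 they summed to 613 to 2006 FPKM, and replicate 1 was the high sample. Between full-length NFIA-expressing and control cells at day 7, limma called 8 of 10 muscle markers lower and 7 of 7 adipocyte markers tested higher. It called 1 of 5 fibroblast markers lower, where 8.17% of all genes were called. The 4 brown adipocyte markers, given with no test, summed to 38.7 to 48.5 FPKM with full-length NFIA and to 14.0 to 15.4 FPKM in control cells. These are bulk samples, so fewer cells of a type and less RNA per cell cannot be told apart, and the part of cell type make-up in the differences below was not tested.

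Differences are given on the scale of log2(FPKM + 1), with the standard error (SE) and the adjusted p-value of limma. A gene was called where the adjusted p-value was under 0.05 and FPKM + 1 differed more than 3-fold. Without the 3-fold criterion, a gene is described as having passed the test. Comparisons at the same time point share their control samples.

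Ckm, the muscle kinase, was already present in control cells at day 0 and far lower in both other kinds of cells. It was at 25.7, 27.2 and 26.8 FPKM in control cells, at 0.0276, 0.0280 and 0.0624 FPKM with full-length NFIA, and at 0.903, 0.632 and 0.872 FPKM in Δpro#3 mutant-expressing cells. The 3 groups did not overlap, and each full-length NFIA sample rested on 1 fragment. From the fragments, the ratio of control to full-length NFIA was 781 (95% counting interval 267 to 3789), that of control to the mutant was 33.3 (26.7 to 42.0), and that of the mutant to full-length NFIA was 23.5 (7.75 to 116). These intervals cover counting error only. On the log2 scale, Ckm was lower by limma with full-length NFIA (-4.73, SE 0.063, adjusted p = 5.80e-13) and with the mutant (-3.94, SE 0.063, adjusted p = 1.29e-11).

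At day 7, Ckm was at 332, 402 and 446 FPKM in control cells, at 59.4, 43.1 and 50.1 FPKM with full-length NFIA, and at 459, 585 and 496 FPKM with the mutant. Full-length NFIA-expressing samples were all below control samples, with a mean 7.74-fold lower (log2 difference -2.93, SE 0.14, limma adjusted p = 2.72e-08). The lowest mutant sample lay above the highest control sample, with means 1.31-fold apart. Between the mutant and full-length NFIA, the log2 difference was 3.32 (SE 0.14, limma adjusted p = 1.73e-08).

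From day 0 to day 7, Ckm rose 14.8-fold in mean FPKM in control cells (log2 difference 3.83, SE 0.11, limma adjusted p = 1.80e-14) and 640-fold with the mutant (log2 difference 8.15, SE 0.11, limma adjusted p = 7.87e-19). With full-length NFIA the ratio from fragments was 1430 (95% counting interval 489 to 6936), since only 3 fragments were counted at day 0. The day 7 level of Ckm with full-length NFIA, 50.8 ± 8.19 FPKM, lay between the day 0 and day 7 levels of control cells, 26.6 ± 0.787 and 393 ± 57.1 FPKM (SD, n = 3). Mutant-expressing cells began 33.1-fold below control cells in mean FPKM, and all 3 of their day 7 samples lay above the highest control sample.

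**Figure D1:**
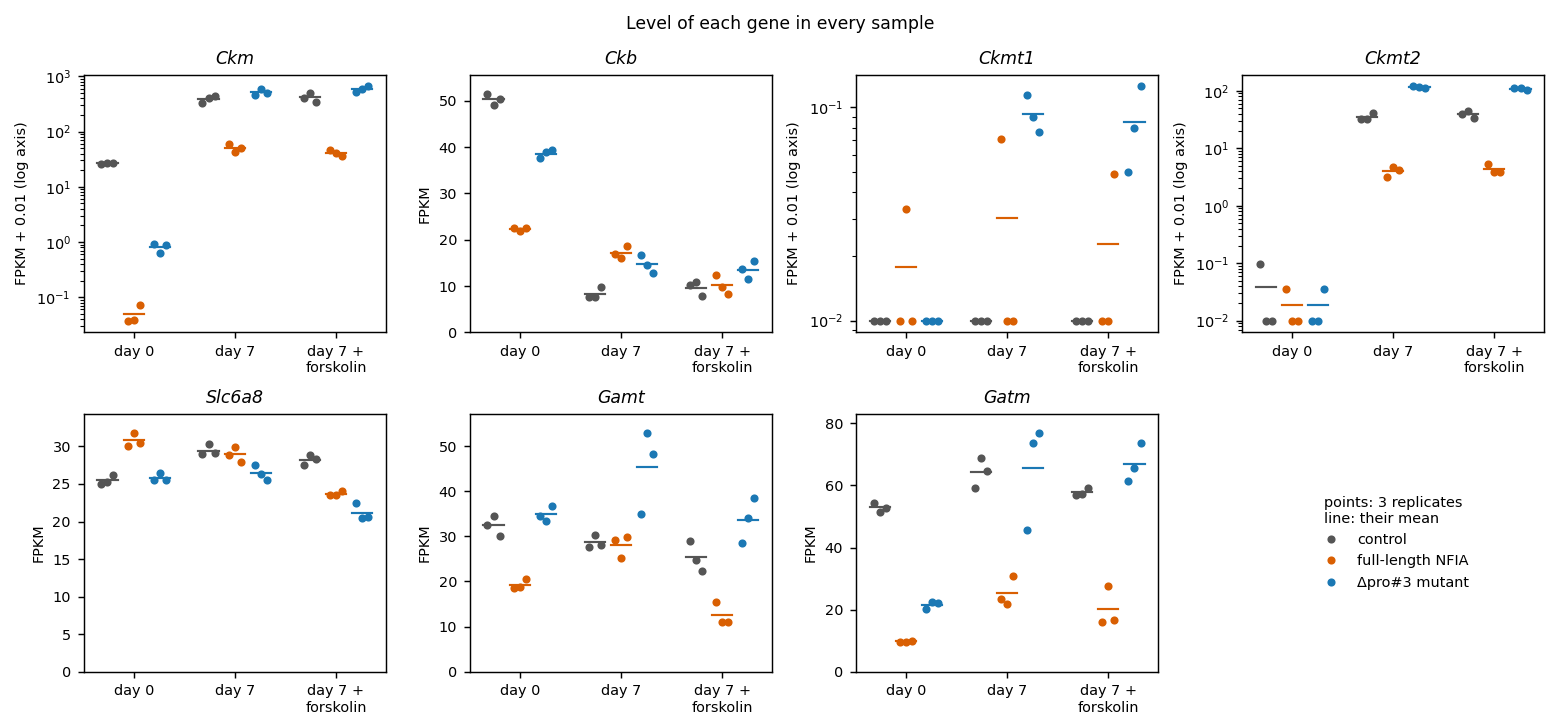
FPKM of each of the 7 genes in the 27 samples, by time point and treatment (horizontal) and by cell type (colour); points are replicates and lines their means, and the vertical axis is logarithmic, with 0.01 added, for Ckm, Ckmt1 and Ckmt2 and linear from 0 for the others. Ckm and Ckmt2 reach their highest levels in mutant-expressing cells on day 7, with or without forskolin (means of 513 and 592 FPKM and of 117 and 109 FPKM), while Slc6a8 stays between 20.5 and 31.8 FPKM in all samples.

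Ckmt2 was close to absent before differentiation. At day 0, 3 fragments were counted over the 3 control samples, 1 with full-length NFIA and 1 with the mutant, and the gene fell below the minimum level for testing. At day 7, it was at 32.0, 32.8 and 41.8 FPKM in control cells, at 3.09, 4.77 and 4.12 FPKM with full-length NFIA, and at 120, 118 and 112 FPKM with the mutant. The groups did not overlap: the mutant mean was 3.29-fold the control mean (116.8 against 35.5 FPKM), which is the difference the gene was selected on, and the full-length NFIA mean was 8.89-fold lower than the control mean. Other members were also higher in mean FPKM with the mutant than in control cells at day 7: Ckb was 1.77-fold, Gamt 1.58-fold and Ckm 1.31-fold the control mean. Gatm was near equal (1.02-fold in mean FPKM, log2 difference -0.0066), and Slc6a8 was 0.898-fold. Ckmt1, near the limit of detection, is given below. How many of all genes differed as much in this comparison was not counted.

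Ckmt2 in the forskolin-treated samples, which took no part in its selection, had the same order. It was at 39.3, 45.5 and 34.1 FPKM in control cells, at 5.41, 3.88 and 3.85 FPKM with full-length NFIA, and at 113, 110 and 104 FPKM with the mutant. Every mutant sample lay above every control sample. The mutant exceeded control by 1.44 on the log2 scale (SE 0.12, limma adjusted p = 5.22e-06), 2.75-fold in mean FPKM and thus under the 3-fold criterion. Full-length NFIA lay below control by more than 3-fold (log2 difference -2.92, SE 0.12, limma adjusted p = 3.52e-09) and below the mutant by more (mutant minus full-length NFIA 4.36, SE 0.12, limma adjusted p = 2.97e-10). These are other samples of the same cells on the same day, so they are not independent of the selection in the way another line would be.

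The level of Ckmt2 relative to Ckm was looked at after the values were seen, and at day 7 it carries the selection of Ckmt2, so it is given with no test. Ckmt2 was at 9.06% ± 0.79 of the level of Ckm in control cells at day 7, 8.18% ± 2.93 with full-length NFIA and 23.0% ± 3.04 with the mutant (SD, n = 3). With forskolin, the same values were 9.51% ± 0.27, 10.7% ± 1.02 and 18.7% ± 3.14. The lowest mutant sample, at 15.7%, lay above the highest of the other samples of day 7, at 11.7%. With forskolin, the summed muscle markers ranged from 12226 to 13239 FPKM with the mutant and from 12513 to 14610 FPKM in control cells, so the groups overlapped. Of the 10 markers, limma and limma-voom called 0 between them (1.55% of all genes by limma, and 465 of 12121 by limma-voom). By limma, 3 passed the test higher and 5 lower (46.6% of all genes passed) and 8 had an unadjusted p under 0.05. The median log2 difference was -0.32 against -0.041 over all genes tested. The summed adipocyte markers did not overlap there, at 542 to 895 FPKM with the mutant and 301 to 312 FPKM in control cells. Of 7 adipocyte markers tested, limma and limma-voom called 0, while 2 passed the test higher and 1 lower and 4 had an unadjusted p under 0.05, from -0.38 (Cebpa) to 1.40 (Lpl) with a median of 0.32. Limma called 1 of 5 fibroblast markers higher and 1 lower and 1 of 3 smooth muscle markers lower. The part of these markers in the Ckmt2 difference was not tested.

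**Figure D2:**
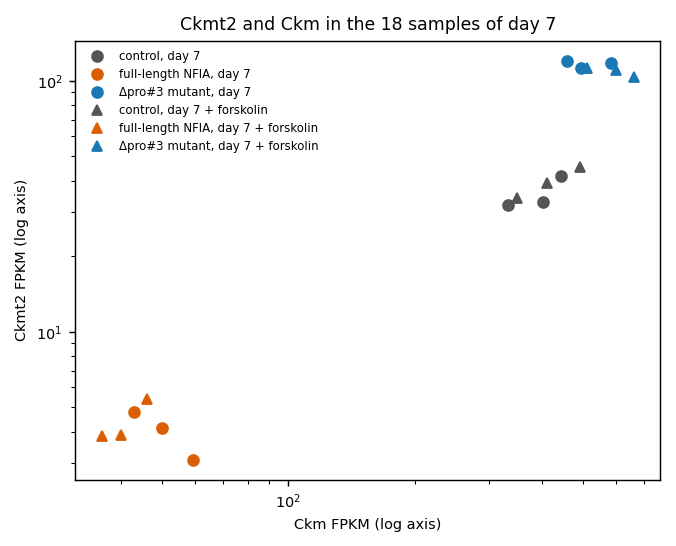
Ckmt2 FPKM (vertical) against Ckm FPKM (horizontal), both on logarithmic axes, in the 18 samples of day 7; colours are the 3 kinds of cells, circles untreated and triangles forskolin-treated samples. The 6 mutant samples lie above the 6 control samples at 104 to 120 FPKM of Ckmt2 against 32.0 to 45.5 FPKM, and the 6 full-length NFIA samples lie low on both axes.

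Ckmt1 was near the limit of detection in every group. No fragment was counted in any of the 9 control samples, and at day 7 a count of 0 over the 3 untreated control samples allows up to 0.0402 FPKM. With the mutant, 2, 3 and 2 fragments were counted at day 7 and 1, 2 and 5 with forskolin, against 1 fragment over each of the 3 groups of full-length NFIA-expressing cells. Its highest value was 0.116 FPKM, far below the level of Ckmt2 in each day 7 sample.

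Ckb ran against Ckm in time. In control cells it was at 51.6, 49.1 and 50.4 FPKM at day 0 and at 7.59, 7.60 and 9.70 FPKM at day 7, a 6.07-fold fall (log2 difference -2.47, SE 0.084, limma adjusted p = 9.70e-14). With the mutant it went from 37.6, 38.9 and 39.4 to 16.6, 14.6 and 12.9 FPKM (log2 difference -1.34, SE 0.084, limma adjusted p = 2.24e-10). With full-length NFIA it began at 22.4, 21.8 and 22.6 FPKM and was still at 16.8, 16.2 and 18.7 FPKM at day 7 (log2 difference -0.35, SE 0.084, limma adjusted p = 0.00104).

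The order of control and full-length NFIA-expressing cells in Ckb turned round between day 0 and day 7. At day 0 full-length NFIA-expressing cells were the lowest, 2.26-fold below control cells (log2 difference -1.14, SE 0.031, limma adjusted p = 9.43e-11), and the mutant lay between. At day 7 without forskolin they exceeded control cells 2.08-fold (log2 difference 0.98, SE 0.11, limma adjusted p = 1.70e-05) and overlapped the mutant samples. The difference between these changes over time was 2.12 on the log2 scale (SE 0.12, limma adjusted p = 1.17e-10). With forskolin this excess was not seen. The means were 10.1 FPKM with full-length NFIA and 9.64 FPKM in control cells (log2 difference 0.060), and the samples overlapped. The 4 neural markers, fixed as those of a tissue rich in Ckb, summed to under 1 FPKM in every sample.

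Upstream sequences are shown for Ckm and Ckmt2, both higher at day 7 than at day 0, and for Ckb, which was lower, so that their motifs can be read beside these values. They are the 250 bases before the annotated start from RefSeq (GRCm38.p6), 5′ to 3′ on the strand of the gene. Capitals mark each CANNTG (the E-box bound by myogenic factors such as MyoD) and each TTGGC or GCCAA (the half-site of NFI proteins on either strand). Of the 7 genes, 6 had an entry, and Slc6a8 had none. The windows are chr7:19410844-19411093 on the plus strand for Ckm, chr13:91876886-91877135 on the minus strand for Ckmt2 and chr12:111672339-111672588 on the minus strand for Ckb.
Ckm: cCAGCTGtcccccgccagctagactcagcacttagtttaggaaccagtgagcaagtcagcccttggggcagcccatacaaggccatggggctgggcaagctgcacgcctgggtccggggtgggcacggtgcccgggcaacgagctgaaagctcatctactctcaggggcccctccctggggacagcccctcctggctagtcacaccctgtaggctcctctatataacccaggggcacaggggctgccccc
Ckmt2: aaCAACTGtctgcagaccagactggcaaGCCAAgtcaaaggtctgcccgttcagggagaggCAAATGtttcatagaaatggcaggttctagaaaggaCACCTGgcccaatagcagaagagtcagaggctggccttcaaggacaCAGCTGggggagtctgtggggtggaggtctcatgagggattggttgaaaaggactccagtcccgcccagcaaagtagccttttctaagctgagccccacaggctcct
Ckb: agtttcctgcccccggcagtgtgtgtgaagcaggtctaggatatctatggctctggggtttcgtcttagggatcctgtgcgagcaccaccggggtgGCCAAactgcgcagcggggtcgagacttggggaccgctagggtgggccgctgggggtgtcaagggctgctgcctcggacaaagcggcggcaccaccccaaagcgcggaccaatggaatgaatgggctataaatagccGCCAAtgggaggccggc

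Ckmt2 held 4 E-boxes in this window, starting 248, 189, 153 and 107 bases before the start, the last of which is CAGCTG, and 1 NFI half-site at 222 bases. Ckm held 1 E-box, also CAGCTG, at 249 bases and no NFI half-site. Ckb held no E-box and 2 NFI half-sites, at 154 and 17 bases. Over the 32851 promoters of the table, 66.2% held at least 1 CANNTG in a window of this length, 3.84% held 4 or more, 13.0% held CAGCTG, and 41.5% held an NFI half-site. The full NFI palindrome of both half-sites was in 0.0365% of them and in none of the 6 genes. CAGCTG is one form of CANNTG, so these counts overlap, and a match of letters is no measure of binding. Letters that match the MEF2 pattern YTAWWWWTAR, held by 2.92% of promoters, were found 29 bases before the start in Ckb and in no other of the 6 genes. They read ctataaatag, and the pattern does not tell a MEF2 site from a TATA box. A CArG box, held by 1.47%, was found in none.

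The change from Ckb to Ckm is seen in their shares. Ckm made up 34.6% ± 1.22 of the summed Ckm and Ckb FPKM in control cells at day 0, 0.176% ± 0.0867 with full-length NFIA and 2.04% ± 0.388 with the mutant (SD, n = 3). At day 7 the shares were 97.9% ± 0.196, 74.5% ± 2.99 and 97.2% ± 0.589, and with forskolin 97.7% ± 0.149, 80.2% ± 1.21 and 97.7% ± 0.347. Full-length NFIA-expressing samples lay below control samples at each of the 3 points without overlap. The exact permutation test of 3 against 3 samples (2-sided) gave p = 0.1 there and for the mutant at day 0, the smallest p it allows. For the mutant with forskolin the same exact permutation test gave p = 1 (difference 0.0062 percentage points). Over all 4 kinases, the FPKM summed to 437 ± 62.6 in control cells, 72.1 ± 7.72 with full-length NFIA and 645 ± 64.7 with the mutant at day 7, and Ckmt2 was 8.14%, 5.67% and 18.2% of these sums. With that sum as the denominator, the difference of the Ckm share between mutant and control cells with forskolin was -6.74 percentage points.

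**Figure D3:**
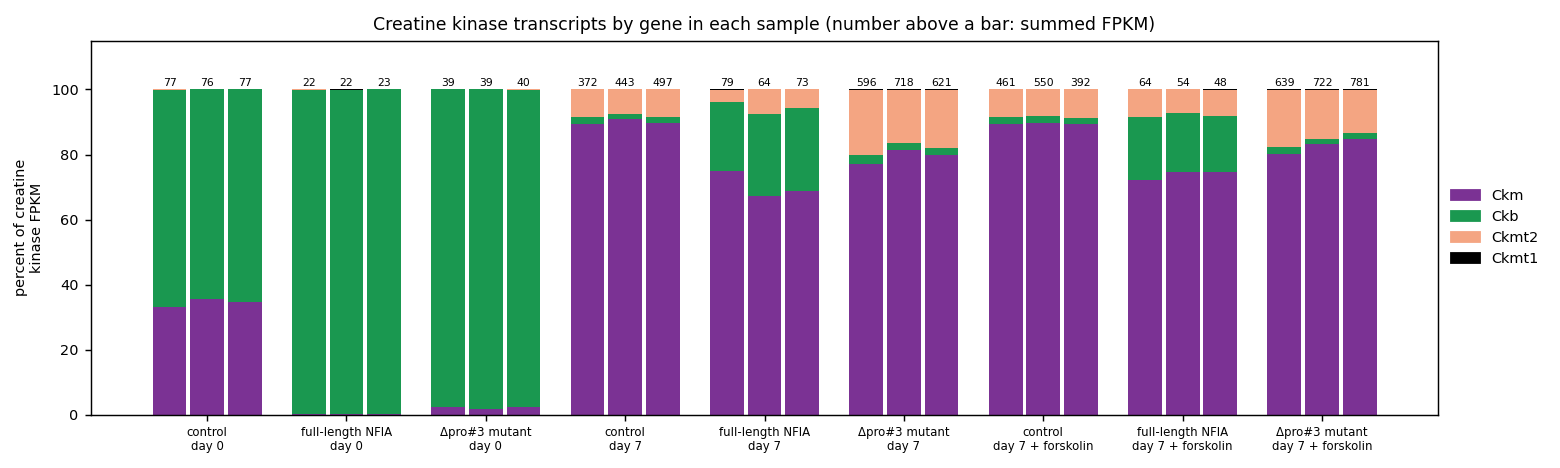
Share of each creatine kinase gene (percent of the summed FPKM of the 4 genes, vertical) in the 27 samples (1 bar each, grouped by cell type, time point and treatment), with the summed FPKM above the bar. Ckb makes up nearly all of the day 0 bars of full-length NFIA- and mutant-expressing cells, and at day 7 the Ckb part is widest with full-length NFIA (24.0% on average) and the Ckmt2 part with the mutant (18.2%).

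Gatm, the gene of the first step of creatine synthesis, was lower with full-length NFIA at all 3 points. At day 0 it was at 54.5, 51.4 and 52.9 FPKM in control cells, at 9.72, 9.72 and 9.82 FPKM with full-length NFIA and at 20.0, 22.4 and 22.1 FPKM with the mutant. The 3 groups stood apart, control cells highest. Full-length NFIA was called lower than control (5.43-fold, log2 difference -2.33, SE 0.042, limma adjusted p = 5.63e-12), and the mutant passed the test at 2.46-fold lower (log2 difference -1.26, SE 0.042, limma adjusted p = 1.31e-09).

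At day 7, Gatm was at 59.3, 68.7 and 64.6 FPKM in control cells, at 23.3, 21.9 and 30.9 FPKM with full-length NFIA and at 45.7, 73.8 and 76.9 FPKM with the mutant. Full-length NFIA remained below control (log2 difference -1.32, SE 0.19, limma adjusted p = 9.79e-05), and mutant and control samples overlapped. Replicate 1 was the lowest of the mutant samples and is also the sample with the high adipocyte markers. Its Gatm level was not tested against them. With the mutant, Gatm rose from day 0 to day 7 by 1.53 (SE 0.15, limma adjusted p = 5.85e-08), just under the 3-fold criterion, and by 1.76 without that sample, past it. With forskolin, Gatm was at 57.0, 57.2 and 59.2 FPKM in control cells, at 16.0, 27.6 and 16.7 FPKM with full-length NFIA and at 61.4, 65.7 and 73.6 FPKM with the mutant. Full-length NFIA lay below control (-1.52, SE 0.16, limma adjusted p = 8.56e-06), short of the 3-fold criterion unless its replicate 2, the high sample, was left out, when 3 of the genes were called there. Gatm was also called higher in the mutant than with full-length NFIA (log2 difference 1.73, SE 0.16, limma adjusted p = 4.16e-06).

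Gamt, the gene of the second step, had a narrower range. At day 0 it was lower with full-length NFIA, at 18.5, 18.8 and 20.5 FPKM against 32.6, 34.6 and 30.2 FPKM in control cells (log2 difference -0.72, SE 0.056, limma adjusted p = 5.11e-07). At day 7, both groups overlapped, at 27.6, 30.4 and 28.1 FPKM in control cells and 29.2, 25.3 and 29.9 FPKM with full-length NFIA (log2 difference -0.031, SE 0.13, limma adjusted p = 0.84). Mutant-expressing cells had the highest levels at day 7, at 35.0, 52.9 and 48.4 FPKM, again with replicate 1 the lowest. With forskolin, the mean of Gamt was 12.5 FPKM with full-length NFIA and 25.3 FPKM in control cells. This was 2.03-fold lower (log2 difference -0.97), without overlap.

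Slc6a8, the creatine transporter, varied least, from 20.5 to 31.8 FPKM over the 27 samples. At day 0, it was at 30.1, 31.8 and 30.5 FPKM with full-length NFIA against 25.0, 25.2 and 26.2 FPKM in control cells (log2 difference 0.26, SE 0.032, limma adjusted p = 2.30e-05). At day 7 the difference was -0.025 (SE 0.050, limma adjusted p = 0.67), and it was 0.076 after scaling by the median ratio between samples. Small differences are to be read against such shifts: the median over all genes was -0.17 for full-length NFIA against control cells with forskolin and -0.0066 once scaled.

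**Figure D4:**
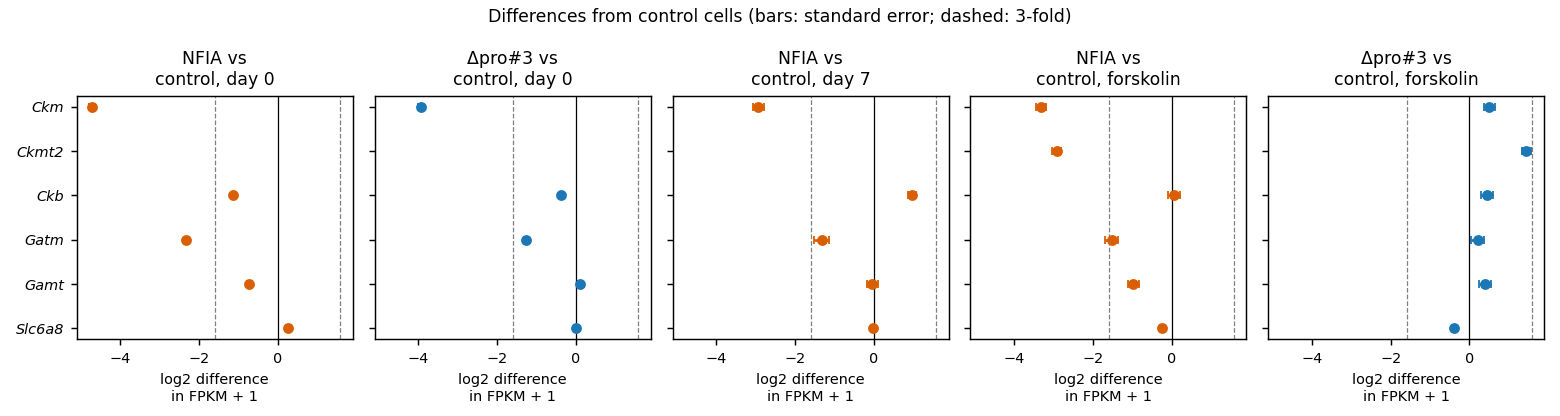
Log2 difference in FPKM + 1 from control cells (horizontal, points) with its standard error (bars, often narrower than the point) for each gene that was tested, in 5 comparisons; dashed lines mark 3-fold. Ckm lies beyond the line in 4 of the panels, from -4.73 to -2.93, and no test is given for its day 0 points. Ckmt2 is at -2.92 with full-length NFIA and at 1.44 with the mutant, both with forskolin.

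Counted over the comparisons, few of the genes were called, and the counts are read against the share of all genes called. Ckm is left out of the day 0 counts, because it passed the minimum mean of 0.5 FPKM through control cells. Of the other genes tested at day 0, Gatm alone was called between full-length NFIA and control cells (5.24% of all 12105 genes). Limma called none of them between the mutant and control cells (2.18%). Between the mutant and full-length NFIA it also called none (2.05%). There, all of them had an adjusted and an unadjusted p under 0.05, as did 65.3% of all genes by the adjusted p. At day 7, 1 of 5 was called between full-length NFIA and control cells (8.17%) and 1 of 5 between the mutant and full-length NFIA (6.30%), both times Ckm. Ckmt1 was under the minimum in every comparison, and Ckmt2 at day 0.

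With forskolin, 2 of 6 genes were called between full-length NFIA and control cells (Ckm and Ckmt2; 8.02% of all genes) and 3 of 6 between the mutant and full-length NFIA (Ckm, Ckmt2 and Gatm; 6.20%). Between the mutant and control cells, limma and limma-voom each called 0 of 6 (1.55% of all genes by limma, and 465 of 12121 by limma-voom). By limma, 5 passed the test by adjusted and by unadjusted p, as did 46.6% of all genes by the adjusted p. These were Ckmt2, given above, Ckm (0.51, SE 0.13, adjusted p = 0.0106), Ckb (0.45, SE 0.15, adjusted p = 0.0289), Gamt (0.40, SE 0.14, adjusted p = 0.0409) and Slc6a8 (-0.40, SE 0.053, adjusted p = 0.000142). Ckb failed the threshold with no filter on low values (0.45) and without control replicate 3 (0.33), mutant replicate 1 (0.45) or mutant replicate 3 (0.36), and Gamt with no filter or with the replicate number as a block (0.40 in both) and without control replicate 2 (0.38) or 3 (0.31) or mutant replicate 2 (0.38) or 3 (0.30). Ckmt2 and Ckm passed it under every alternative tried.

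From day 0 to day 7, 2 of 5 genes were called in control cells (Ckm up and Ckb down; 6.70% of all genes), 1 of the 5 genes other than Ckmt2 with full-length NFIA (Ckm, up; 10.1%) and 1 of 5 with the mutant (Ckm, up; 6.84%). Without replicate 1 of the mutant at day 7, the last count was 2, with Gatm. Ckmt2 reached the minimum level here through its day 7 samples alone, so its change is given with no test. With full-length NFIA it was 2.29 on the log2 scale, a ratio of 389 from fragments (95% counting interval 69.2 to 15414, with 1 fragment at day 0). The difference in change between full-length NFIA and control cells was called for Ckb and Ckm, 2 of 5 (7.62%), and all 5 passed the test without the 3-fold criterion, as did 71.2% of all genes.

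No member was called for its response to forskolin. By limma, 0 of 5 were called in control cells (0.392% of all genes), 0 of 6 with full-length NFIA (0.743%), 0 of 5 with the mutant (0.588%) and 0 of 5 for the difference between the responses of full-length NFIA and control cells (0.572%). Limma-voom called none of them either, against 111, 219, 185 and 156 of all 12245 genes. At an unadjusted p under 0.05 there were 0, 3, 2 and 3 genes, and the same numbers at an adjusted p under 0.05, which 20.5%, 55.4%, 35.8% and 30.6% of all genes reached.

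With full-length NFIA, Gamt fell with forskolin from 29.2, 25.3 and 29.9 to 15.4, 11.1 and 11.0 FPKM (log2 difference -1.12, SE 0.15, limma adjusted p = 1.03e-05). Ckb fell from 16.8, 16.2 and 18.7 to 12.4, 9.71 and 8.32 FPKM (-0.73, SE 0.14, limma adjusted p = 0.000414). Treated and untreated samples did not overlap for either gene. Slc6a8 fell to 23.5, 23.6 and 24.1 FPKM (-0.28, SE 0.047, limma adjusted p = 0.000123), of which -0.14 was left after scaling by the median ratio. In control cells the corresponding differences were -0.18, 0.19 and -0.059, none of which passed the test.

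With the mutant, Slc6a8 fell with forskolin from 27.5, 26.4 and 25.5 to 22.5, 20.5 and 20.6 FPKM (-0.31, SE 0.047, limma adjusted p = 9.93e-05). Gamt, at 28.5, 34.2 and 38.4 FPKM after treatment, passed the test by a small margin (-0.41, SE 0.15, limma adjusted p = 0.0422) that was lost in 11 of the alternatives. Among these were leaving out replicate 1 or 3 of untreated control cells, replicate 2 of treated control cells, replicate 2 or 3 of the untreated mutant, or replicate 1 or 2 of the treated mutant, with values from -0.42 to -0.29. The forskolin difference of Ckm did not pass in any of the 3 kinds of cells, and that of Ckmt2 was 0.11 with full-length NFIA (SE 0.13, limma adjusted p = 0.51).

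**Figure D5:**
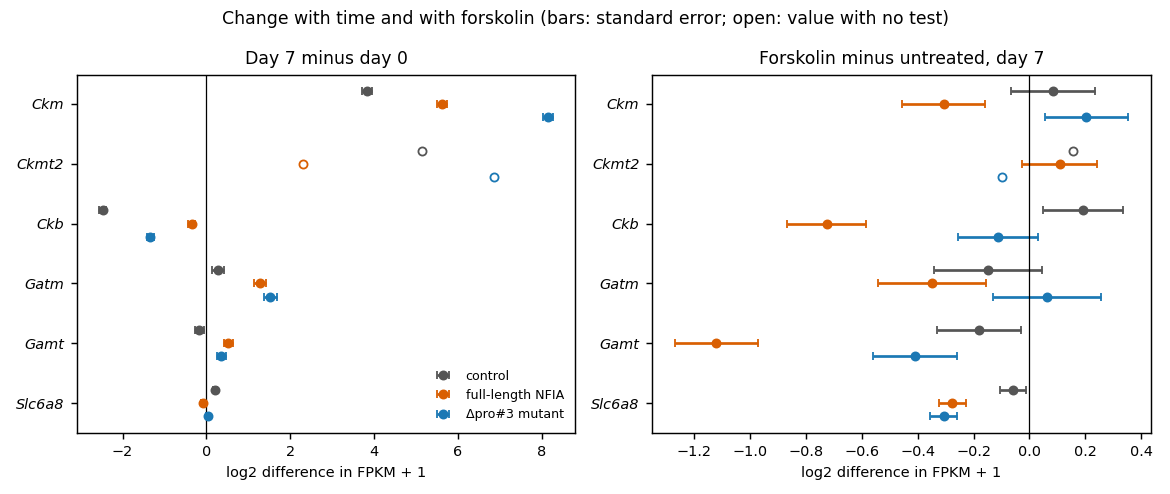
Log2 difference in FPKM + 1 (horizontal) between day 7 and day 0 (left) and between forskolin-treated and untreated cells at day 7 (right) for 6 genes and 3 kinds of cells (colours); bars are standard errors and open points are values with no test. The widest forskolin differences are those of Gamt and Ckb with full-length NFIA, at -1.12 and -0.73, and the axes of both panels have different ranges.

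Genes that work beside creatine kinase were taken from fixed lists. Of the 8 mitochondrial partners (Vdac channels, ATP and phosphate carriers and ATP synthase subunits), limma and limma-voom called none in the 5 comparisons with control cells that were tested. In these, limma called 1.55% to 8.17% of all genes, and limma-voom called from 465 of 12121 to 1640 of 12324 genes. Between full-length NFIA and control cells at day 7, their log2 differences ran from -0.19 (Vdac2) to 0.70 (Slc25a5), 3 passing the test higher and 2 lower, and 5 having an unadjusted p under 0.05, where 72.4% of all genes passed the test. Between mutant and control cells with forskolin they ran from -0.34 (Vdac3) to 0.56 (Slc25a4, the ATP and ADP carrier of heart and muscle, adjusted p = 4.95e-05), 3 passing higher and 1 lower, and 4 having an unadjusted p under 0.05, where 46.6% of all genes passed.

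Of 13 genes of adenylate energy buffering, Adssl1, the muscle adenylosuccinate synthase, was called lower with full-length NFIA at day 7 (61.0 ± 3.78 FPKM in control cells against 16.2 ± 0.810, log2 difference -1.85, SE 0.059, limma adjusted p = 1.76e-09), 1 of 13 where 8.17% of all genes were called. The median of the list was -0.081, against -0.080 over all genes tested. Of 10 glycogen breakdown genes tested there, 1 was called lower and 1 higher, against the same 8.17%. Pygm, the muscle glycogen phosphorylase, was 100.8 ± 5.30 FPKM in control cells and 12.2 ± 1.89 FPKM with full-length NFIA (-2.95, SE 0.092, limma adjusted p = 1.55e-09), and Pygb, the brain-type phosphorylase, was 12.6 ± 1.09 and 104 ± 6.72 FPKM (2.95, SE 0.093, limma adjusted p = 1.63e-09). Like Ckm, Pygm was also lower at day 0. Limma called it both with full-length NFIA (-2.22, SE 0.062, adjusted p = 1.21e-10) and with the mutant (-1.62, SE 0.062, adjusted p = 3.59e-09). Of 16 genes of arginine, glycine and methyl supply tested at day 7, limma and limma-voom called 0 (2 passed the test higher and 9 lower, 11 having an unadjusted p under 0.05, where 72.4% of all genes passed), with a median of -0.26 against -0.080 over all genes tested. Limma-voom called 1640 of all 12324 genes there.

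Alpl, which encodes the tissue non-specific alkaline phosphatase and has been described to dephosphorylate phosphocreatine in thermogenic fat, was at 4.56 ± 0.477 FPKM with full-length NFIA at day 0, against 1 fragment over 3 control samples, and at 5.13 ± 0.626 FPKM at day 7, against 3 fragments over 3 control samples. It reached the minimum level for testing at these points through the full-length NFIA group alone, so no test is given. With forskolin it rose to 125 ± 4.52 FPKM with full-length NFIA (log2 difference 4.37, SE 0.10, limma adjusted p = 1.05e-14), while with the mutant it was at 0.354 ± 0.0567 FPKM untreated, under the minimum, and at 11.7 ± 2.06 FPKM treated, again with no test. In control cells it was at 0.283 ± 0.128 FPKM with forskolin (43 fragments over 3 samples), under the minimum in both groups and given with no test. In full-length NFIA-expressing cells, Alpl thus rose with forskolin where Gamt and Ckb fell.

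Genes whose pattern was most like each member over the 9 group means were named by Pearson's r of log2(FPKM + 1) among 10181 genes, as a description. For Ckm they were Tnnc1 (0.997), Tnnc2 (0.996) and Itgb1bp2 (0.996), the first pair being troponin C genes. For Ckmt2 they were Pvalb (0.994), which encodes the calcium buffer parvalbumin of fast muscle, Mlip (0.991) and Myot (0.990), a gene of the muscle Z-disc. For Gatm they were Plekhb2 (0.976), Gprc5c (0.974) and Mrln (0.970), the gene of the muscle micropeptide myoregulin. For Ckb they were Rac3 (0.990), Ebf3 (0.989) and Hmbox1 (0.983). The likeness was lower for Gamt (Fuk 0.95, Snapin 0.948, Ino80b 0.941) and Slc6a8 (Dctn5 0.916, Tchp 0.914, Fto 0.901). Between the members, r was 0.92 for Ckm and Ckmt2, 0.88 for Ckm and Gatm, and -0.66 for Ckm and Ckb.

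In the genome (NCBIM37, which is mm9), the genes lie apart except for a pair on chromosome 2. Ckm is at chr7:19996443-20006932 and Slc6a8 at chrX:70918489-70927841, both on the plus strand. On the minus strand are Ckb at chr12:112907566-112910549, Ckmt2 at chr13:91992992-92016490 and Gamt at chr10:79720896-79723757. Ckmt1 at chr2:121183450-121189473 (plus) and Gatm at chr2:122420203-122437039 (minus) share a chromosome. FPKM were summed over the transcript of each gene, and no part of a gene was examined on its own.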

How the data were processed

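The 27 samples were grouped by the construct, time point and treatment in the deposited labels. According to their methods and processing notes, the authors used STAR 2.5.3a on mm9 with multiply mapping reads discarded, took its strand-matched gene counts and turned them into the deposited FPKM, and no further scaling between samples is described. Reads that also map to near-identical copies are therefore not counted. All values (100%) were whole multiples of 1 fragment's worth within 0.1 of a fragment, so fragments were worked back from them for depth and counting intervals. Of the gene symbols, 26 had turned into dates and were kept.

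The 7 members and all lists were chosen with earlier results of these data known. R 4.3.3 with limma 3.58.1 was fitted to log2(FPKM + 1) of genes with a mean of 0.5 FPKM or more, with trended moderation and 1 mean per group, over the 9 samples of a time point, 18 for forskolin responses (12245 genes) and 18 for changes over time (12408 genes). P-values are 2-sided and adjusted by Benjamini-Hochberg over all genes of a comparison. Shares were compared by exact permutation tests in SciPy 1.17.1 (Python 3.11.15), and figures drawn with matplotlib 3.10.9. The steps were tested on simulated data. Genes outside the members were named by a rule: per list, the genes called against control cells at day 0 or 7 with the largest change, and the 3 genes most like each member (among those reaching a group mean of 5 FPKM). Marker genes under the rule are given as sums and counts. Slc25a4, Vdac2, Vdac3 and Slc25a5, and Cebpa and Lpl as the ends of a range, outside that rule, were named after their values were seen. Alternatives were a pseudocount of 0.1, median-ratio scaling, no filter, a minimum of 5 FPKM, only the groups compared, no trend, the replicate number as a block, limma-voom on fragments, and each sample left out.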

Additional observations from a re-analysis of the deposited data

Results flagged for a closer look

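The response to forskolin differed between full-length NFIA-expressing and control cells for 3 of the 5 genes tested, by limma's test of the difference itself in 18 samples, which 30.6% of all genes passed. With the 3-fold criterion, limma and limma-voom called 0 of the 5, all 3 having an unadjusted p under 0.05. Limma called 0.572% of all genes, and limma-voom 156 of 12245. The difference (full-length NFIA minus control) was -0.92 on the log2 scale for Ckb (SE 0.20, limma adjusted p = 0.00266), -0.94 for Gamt (SE 0.21, limma adjusted p = 0.00320) and -0.22 for Slc6a8 (SE 0.067, limma adjusted p = 0.0218). For Slc6a8, scaling by the median ratio left -0.14, which no longer passed the test.

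The change from day 0 to day 7 differed between the same cells for all 5 genes tested, a test that 71.2% of all genes passed, and 2 of the 5, Ckb and Ckm, were called (7.62% of all genes). The difference (full-length NFIA minus control) was 2.12 for Ckb (limma adjusted p = 1.17e-10), 1.80 for Ckm (limma adjusted p = 3.74e-08), 1.01 for Gatm (limma adjusted p = 0.000403), 0.69 for Gamt (limma adjusted p = 0.000735) and -0.29 for Slc6a8 (limma adjusted p = 0.000198). The value of Ckm depends on the pseudocount, because its day 0 level with full-length NFIA rests on 3 fragments.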

How the results depend on the processing

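For the counts of genes called and the differences in share, 378 values stayed within the limits set under the alternatives, 6 moved and 3 reversed. With the 4 kinases as the denominator, the difference in the Ckm share was -15.6 percentage points for full-length NFIA against control cells with forskolin (-17.5 with Ckm and Ckb) and -19.7 at day 7 (-23.5), and it was -6.74 for the mutant against control cells with forskolin. The last difference also turned to -0.176 without replicate 2 of the mutant and to -0.0782 without replicate 1 of the control cells (range over samples left out -0.176 to 0.170). With Ckm counted, the count for the mutant against full-length NFIA at day 0 was 1 with a pseudocount of 0.1 and with limma-voom, where limma had called 0. By limma-voom, which called 587 of all 12105 genes there, the gene was Ckm, left out of the day 0 counts above. The count for day 7 against day 0 in the mutant was 2 with median-ratio scaling and without replicate 1 of day 7, and 1 to 2 over the samples left out. For full-length NFIA against control cells with forskolin it was 2 to 3.

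Among single genes, 13 values reversed, and in none of them did limma's main result pass the test. Median-ratio scaling turned the day 7 differences between full-length NFIA and control cells to 0.076 (Slc6a8) and 0.071 (Gamt) and the change of Slc6a8 over time with full-length NFIA to 0.057. With 1 sample left out, Gamt there ranged from -0.075 to 0.041 (reversed values 0.010 and 0.041), Ckb in full-length NFIA against control cells with forskolin from -0.080 to 0.18 (-0.066 and -0.080), Ckm in the forskolin response of control cells from -0.042 to 0.21 (-0.032 and -0.042), Ckmt2 in that of full-length NFIA from -0.027 to 0.22 (-0.027 and -0.024) and Gatm in that of the mutant from -0.17 to 0.20 (-0.17 and -0.0069). A further 37 values lost the threshold and 23 gained it, and 1749 kept their side. The cause was not tested.

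The replicate numbers did not pair the samples: the mean correlation of same-numbered deviations was 0.014 at day 0, -0.031 at day 7 and -0.0019 with forskolin, and only 1 of 27 same-number pairs was over 0.1. With the replicate number as a block, all 16 counts of genes called kept their value (2 for full-length NFIA and 1 for the mutant against control cells at day 0 with Ckm counted, for example). Of 85 single-gene results, 3 changed sides: Gamt lost the threshold for the mutant against control cells with forskolin (0.40) and for forskolin with the mutant (-0.41), and Slc6a8 gained it for the change over time with full-length NFIA (-0.087). Over all genes, the calls per comparison rose 1.51 to 2.18 times with a pseudocount of 0.1 (87 to 1886, against 48 to 1252) and 1.58 to 2.57 times with limma-voom (111 to 2013), and fell to 0.60 to 0.66 times in 6 comparisons with a minimum of 5 FPKM, where fewer genes are tested. Ckmt1 was left untested by the minimum of 0.5 FPKM.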

Other observations

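Ckmt1, which was below the minimum for testing, was counted in all 6 mutant samples of day 7 with and without forskolin (15 fragments in all), in 0 of the 6 control samples and in 2 of the 6 full-length NFIA samples of that day, a pattern noticed in the values and given with no test.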
